A study of Sus scrofa with 48 samples.

Results

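A set of 8 liver genes was described, EHHADH, ACAA1, ECI2, DECR1, HSD17B4, PDK4, FGF21 and ACSL1, out of 12171 named genes on the array. They were chosen by name, from every probe whose gene name, or whose transcript accession in a reference table, was that of 1 of the genes. The rule used no measured value, although the genes were chosen with earlier results of these data known. It found 29 probes: 11 for PDK4, 5 for DECR1, 4 for ACSL1, 3 for HSD17B4, 2 each for EHHADH and FGF21, and 1 each for ACAA1 and ECI2.

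Liver RNA was measured in 48 purebred Large White barrows (castrated males), with 1 array per pig. They belonged to lines that 8 generations of selection had driven to low or high residual feed intake (RFI). RFI is the gap between what a pig eats and what its daily gain and backfat thickness predict. A low RFI therefore means a more efficient animal. From 74 days of age, 12 pigs of each line were fed a high-fat high-fiber diet (HF) and 12 a low-fat low-fiber diet (LF), both ad libitum. All were killed at about 19 weeks of age, 2 hours after the last meal, so that the livers were taken from fed pigs. Fat and fiber changed together between the diets, so that their parts cannot be told apart, and each line is 1 selection line without a replicate line.

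Fatty acids are first joined to coenzyme A by acyl-CoA synthetases such as ACSL1, a long-chain enzyme abundant in liver. Very long chains and branched chains are then shortened in peroxisomes, where EHHADH and HSD17B4 each carry out the hydration and dehydrogenation steps and ACAA1 the last, thiolytic step. ECI2 and DECR1 move or reduce double bonds of unsaturated fatty acids so that the spiral can go on, ECI2 in peroxisomes and mitochondria and DECR1 in mitochondria. During fasting, fatty acids activate the nuclear receptor PPARA, and PDK4 and FGF21 rise. PDK4 is a kinase that switches off pyruvate dehydrogenase and spares glucose, and FGF21 is a hormone released by the liver.

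Each array was read with a single dye. A level here is the log2 background-subtracted intensity relative to the median of the array, so that 0 is the median tested probe. Levels are compared between pigs for the same probe, and the brightness of a probe is not read against that of another. Differences are given as low minus high RFI line and as HF minus LF, and a fold change (FC) is its size on the linear scale. A probe was called at P under 0.01 and FC over 1.1 in limma, and the P-BH (Benjamini-Hochberg over all 45236 tested probes) is given beside it. Each gene was represented by its brightest probe.

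The livers showed their own markers. Of 6 hepatocyte markers 5 were tested, each with a signal clear of background in every pig, and their summed linear level ranged from 5631 to 9408 with group medians between 7648 and 8438. The arrays were spread over 6 slides and 2 scan days, with 2 arrays of each group on every slide, and an array had from 65.8% to 77.2% of its probes well above background. All 29 probes passed the filter on dim probes, and 27 were well above background in all 48 pigs. The exceptions were the FGF21 probes, at 43 and 38 arrays. The tissue was bulk liver, where fewer cells of a type and less RNA per cell cannot be told apart.

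Probe sequences are shown first for the genes whose results turn on single probes, as printed on the array and with the start listed for the probe on its transcript. For HSD17B4, 3 probes were laid on the same gene and 1 of them differed between lines, so that all 3 are given, the probe at 2101 whole and the others by their first 30 bases.
HSD17B4 at 2101: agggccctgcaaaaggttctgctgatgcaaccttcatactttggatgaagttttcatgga
HSD17B4 at 2479: cggcacgtgattatccttctgttcttagat
HSD17B4 at 2736: gataaaggtctttatgtttccaagtagttt

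The 11 PDK4 probes held 10 different sequences, since the brightest probe, which has no listed start, had the same 60 bases as the probe at 3429. It shared a run of 19 bases with the probe at 3399, and the probes at 2575 and 2576 shared a run of 33. Probes that overlap in this way are not independent readings. The end of the probe at 3399 and the beginning of the probe at 3429 are given with the shared 19 bases in capitals, beside the first 30 bases of the probe at 3341, which carried the widest interaction.
PDK4 at 3399: CTAGTGGATGGAAACTGACgttcaggccca
PDK4 at 3429: CTAGTGGATGGAAACTGACtgttcaggccc
PDK4 at 3341: caataacgtcaactgtgtaaatggagttct

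For ACSL1, the probe with the widest diet difference, at 1314, is given whole, and the brightest probe, with no listed start, by its first 30 bases.
ACSL1 at 1314: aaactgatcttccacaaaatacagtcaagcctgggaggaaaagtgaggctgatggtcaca
ACSL1 brightest: gtcaccttggggttttgaatgtttgcttta

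Over both lines, calls for diet fell on a pair of genes. PDK4 and ACSL1 were lower on HF than on LF, by 1.27 and 1.29 times, and they were the 2 genes called of 8. Over all named genes, 4.19% were called for diet. Of the 29 probes 7 were called, 4 of PDK4 and 3 of ACSL1, and all 7 were lower on HF. Over all probes, 4.61% were called for diet and 2.54% were called as lower on HF. None of the 29 probes reached a P-BH of 5% for diet, although 16 had an unadjusted P under 0.05. These were probes of PDK4, ACSL1 and EHHADH alone, and probes of the same gene are not independent readings. By gene, 3 of the 8 had such a P, beside 1509 of 10544 named genes and 6526 of 45236 probes. Both calls were lost with quantile normalization, with the normexp background correction, with the median intensity without background subtraction and within either scan day. The median difference of the 8 genes was -0.08, beside -0.02 over all named genes.

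**Figure D1:**
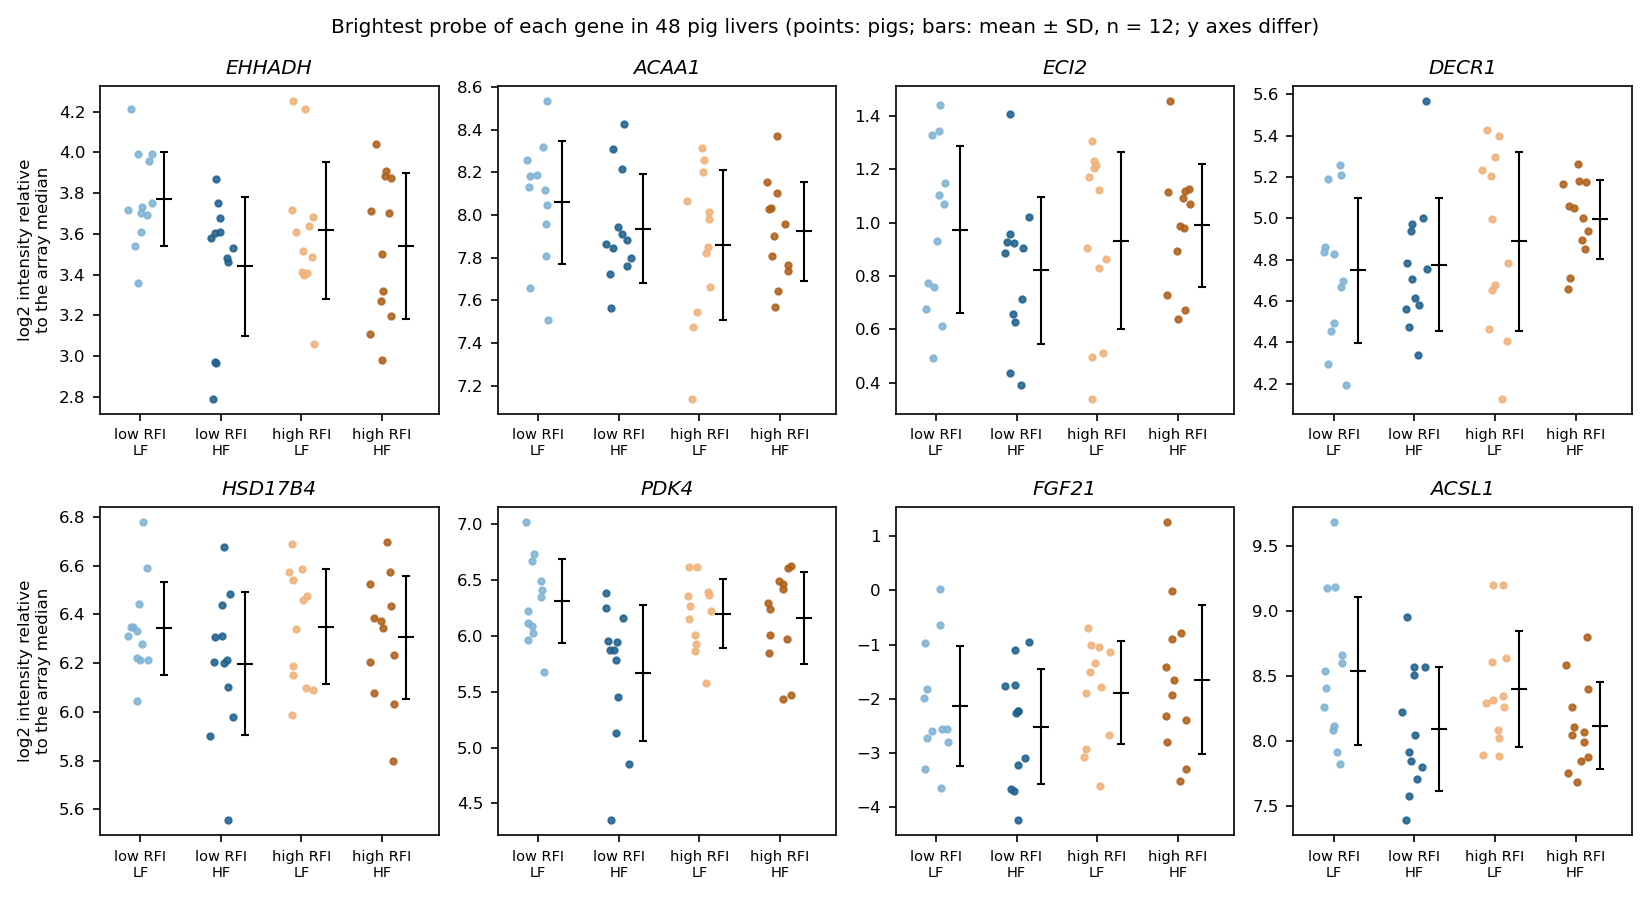
Log2 intensity relative to the array median (y axis, scales differ between panels) of the brightest probe of each of the 8 genes, by line and diet (x axis), with 1 point per pig and bars for mean ± SD (n = 12). PDK4 was lowest in low RFI pigs on HF (5.67 ± 0.61) and ACSL1 had lower means on HF in both lines (8.09 and 8.12, against 8.54 and 8.40 on LF), while the groups of every gene overlapped.

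In PDK4, the pyruvate dehydrogenase kinase, the low RFI pigs on HF stood below the other groups. Their levels ran from 4.35 to 6.39 with a median of 5.88. In low RFI pigs on LF they ran from 5.68 to 7.02 with a median of 6.29.
The high RFI pigs hardly differed by diet. Their levels ran from 5.44 to 6.62 (median 6.27) on HF and from 5.58 to 6.62 (median 6.25) on LF. The ranges of all 4 groups overlapped, and the low RFI pigs on HF reached further down than any other group.

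Over both lines, PDK4 was lower on HF by a log2 difference of -0.34 (SE 0.125, P = 0.00843, P-BH = 0.187). In the low RFI line the difference was -0.65 (SE 0.176, FC 1.56, P = 0.000637, P-BH = 0.23). In the high RFI line it was -0.04, with a 95% interval of -0.40 to 0.31 (P = 0.82).
The contrast between lines was tested as an interaction and did not pass the cut-offs for the brightest probe, at -0.61 (SE 0.249, P = 0.0191, P-BH = 1). Within the scan days it was -0.26 (P = 0.323) and -0.95 (P = 0.0239). It was below 0 in all 29 probes of the 8 genes, and in the 11 of PDK4 it lay between -0.51 and -0.78 with P from 0.00838 to 0.0329. Probes of the same gene are not independent readings. In the lists counted below it was also below 0 in 16 of 20 peroxisomal, 14 of 16 mitochondrial and 14 of 20 fasting genes. The same held for 5 of 5 ketone body genes, 7 of 9 of pyruvate dehydrogenase and 3 of 3 other synthetases. The sign was therefore not particular to the 8 genes. The median over all named genes was 0.0005. The probe at 3341 was the single one of the 29 called, where 0.376% of all probes were called for the interaction.

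All 11 PDK4 probes gave the same picture by line. Their diet differences lay between -0.53 and -0.70 in low RFI pigs and between -0.09 and 0.07 in high RFI pigs. These 11 were most of the 13 probes called for diet in the low RFI line, where 2.68% of all probes were called. The others were 1 of EHHADH and the ACSL1 probe at 3070. The 11 probes read the same gene and do not count as separate results. By gene, 1 of the 8 was called there, PDK4, beside 290 of 10544 named genes. In the high RFI line 0 of the 29 probes was called, and 0 had an unadjusted P under 0.05, where 1.58% of all probes were called. The PDK4 probes followed each other over pigs with a median r of 0.91 (range 0.70 to 0.99 over 55 pairs).

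**Figure D2:**
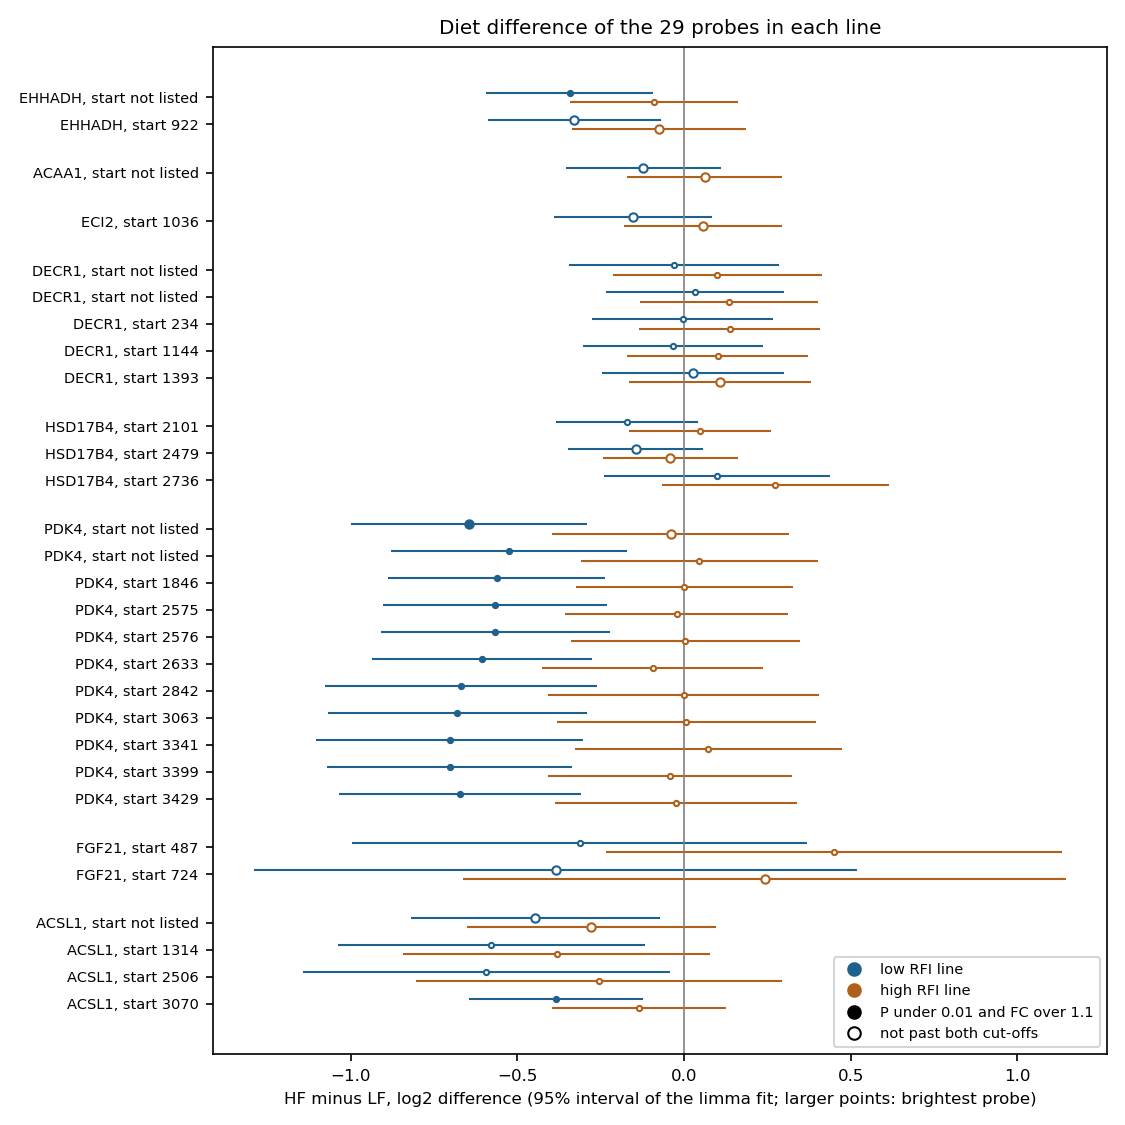
Diet difference (HF minus LF, log2, x axis) of each of the 29 probes (y axis) in the low RFI line (blue) and in the high RFI line (brown), as limma estimates with 95% intervals, larger points for the brightest probe and filled points for probes called. The PDK4 probes lay between -0.53 and -0.70 in the low RFI line and between -0.09 and 0.07 in the high RFI line.

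In order of mean level, PDK4 ranked low RFI on LF (6.31 ± 0.38), high RFI on LF (6.20 ± 0.31), high RFI on HF (6.16 ± 0.41) and low RFI on HF (5.67 ± 0.61; SD, n = 12). Of the neighbours in that order the last pair alone passed the cut-offs, so that on HF the low RFI pigs were lower by 0.49 on the log2 scale (difference of -0.49, P = 0.00785, P-BH = 0.262). On LF the lines differed by 0.12 (P = 0.516). Among the 29 probes, 3 were called between lines on HF (2 of PDK4 and 1 of HSD17B4, all lower in the low RFI line) beside 3.41% of all probes, and 0 were called on LF, where 1 had an unadjusted P under 0.05, beside 3.84%.

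Slides and scan days gave the PDK4 difference with different sizes. In the low RFI line it was below 0 on 6 of 6 slides, from -1.33 to -0.28. Within the scan days it was -0.37 (P = 0.0553) and -0.92 (P = 0.00296).
The line difference on HF rested on the second scan day, where it was -0.88 (P = 0.00416), against -0.10 (P = 0.606) on the first. When each array was left out in turn, in fits without moderated variances, PDK4 in the low RFI line remained past the cut-offs in 48 of 48 fits. The diet difference over both lines did so in 21 of 48, and without HF low RFI pig 10 it had a P of 0.0182.

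ACSL1, which activates long-chain fatty acids, was lower on HF over both lines together, and had the lower mean on HF within each. The levels of low RFI pigs ran from 7.39 to 8.96 (median 7.99) on HF and from 7.82 to 9.68 (median 8.48) on LF. Those of high RFI pigs ran from 7.69 to 8.80 (median 8.06) on HF and from 7.89 to 9.21 (median 8.31) on LF. The LF pigs reached higher at the top and the HF pigs lower at the bottom, with wide overlap.

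The diet difference of ACSL1 was -0.36 (SE 0.131, P = 0.00814, P-BH = 0.184). By line it was -0.45 (P = 0.0201) and -0.28 (P = 0.14), and the interaction was -0.17 (P = 0.526), which does not show that the lines responded alike. Neighbouring groups in the order of ACSL1 did not pass the cut-offs.
The other ACSL1 probes pointed in the same direction. The probe at 1314 gave -0.48 (P = 0.00468, P-BH = 0.151), the one at 3070 gave -0.26 (P = 0.00677, P-BH = 0.172), and the one at 2506 gave -0.42 without passing the cut-off (P = 0.0333). On slides, the brightest probe was below 0 on 5 of 6 (-0.72 to 0.08), and within scan days it was -0.26 (P = 0.139) and -0.46 (P = 0.0237). Leaving out single arrays kept its call in 16 of 48 fits. Without LF low RFI pig 9 the P was 0.0181.

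The bifunctional peroxisomal enzyme EHHADH had the smallest P for diet among the brightest probes that were not called. Its level ran in low RFI pigs from 2.79 to 3.87 (median 3.55) on HF and from 3.36 to 4.21 (median 3.72) on LF. High RFI pigs ran from 2.98 to 4.04 (median 3.60) on HF and from 3.06 to 4.25 (median 3.56) on LF. The groups overlapped, with 3 of the 4 medians between 3.55 and 3.60.
The diet difference was -0.20 (SE 0.0915, P = 0.0321, P-BH = 0.297) and was not called. In low RFI pigs it was -0.33 (P = 0.0143), and the second EHHADH probe, with no listed start, was called there at -0.34 (P = 0.00851, P-BH = 0.358). The interaction of the brighter probe was -0.25 (P = 0.171).

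ACAA1 and ECI2 had no called difference. The ACAA1 level lay between 7.14 and 8.54 in the 48 pigs, and its diet difference was -0.03 with a 95% interval of -0.19 to 0.13. ECI2 had group means of 0.82 to 0.99, SD 0.23 to 0.33 (n = 12), and a diet difference of -0.05 (P = 0.568). A probe under the older name of ECI2, PECI, was kept apart because the rule did not take it. It followed ECI2 over pigs (r = 0.89) and gave 0.03 for diet.

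DECR1, the mitochondrial dienoyl-CoA reductase, was not called for diet, at 0.07 (P = 0.487). Its line difference of -0.18 (SE 0.0957, P = 0.0654, P-BH = 0.39) did not pass either. On HF the levels ran from 4.34 to 5.57 (median 4.73) in low RFI pigs and from 4.66 to 5.26 (median 5.03) in high RFI pigs. The high RFI pigs formed the tighter group, inside the range of the low RFI pigs. The other 4 probes gave line differences between -0.19 and 0.08.

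For the line effect over both diets, the counts of calls were near those of the whole array. Of the 8 representative probes 0 were called and 0 had an unadjusted P under 0.05, where 6.82% of all named genes were called. Of the 29 probes 1 was called, where 6.91% of all probes were. It was the probe at 2736 of HSD17B4, the second bifunctional enzyme. For the interaction 0 of the 8 genes were called, with 1 at an unadjusted P under 0.05, beside 0.341% of named genes.

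At that HSD17B4 probe, low RFI pigs ran from 4.78 to 6.36 (median 5.51) on HF and from 4.80 to 6.14 (median 5.44) on LF. High RFI pigs ran from 5.60 to 6.44 (median 6.04) on HF and from 4.72 to 6.41 (median 5.80) on LF. On both diets the low RFI pigs had the lower median, and the ranges overlapped. On HF the line difference was called, at -0.50 (P = 0.00489, P-BH = 0.21), and on LF it was not, at -0.32 (P = 0.0611).
The line difference was -0.41 (SE 0.12, P = 0.00121, P-BH = 0.0363), the single one of the 29 probes past a P-BH of 5%. It was below 0 on 5 of 6 slides and -0.37 (P = 0.0299) and -0.46 (P = 0.0118) within the scan days. It stayed past the cut-offs in 48 of 48 fits without 1 array.

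The other HSD17B4 probes gave no line difference past the cut-offs, with -0.06 (SE 0.0711, P = 0.424) for the brightest, at 2479, and -0.04 (P = 0.567) at 2101. These probes followed each other over pigs (r = 0.84), and followed the probe at 2736 less closely (r = 0.49 and 0.53). As a description, chosen after the values were seen and given with no test, the gap between probes within each array was set beside the line.
The level at 2736 minus that at 2479 was -0.79 ± 0.43 in low RFI pigs and -0.44 ± 0.35 in high RFI pigs (SD, n = 24 per line). The gap of 2479 to 2101 was 0.65 ± 0.13 and 0.67 ± 0.15.

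**Figure D3:**
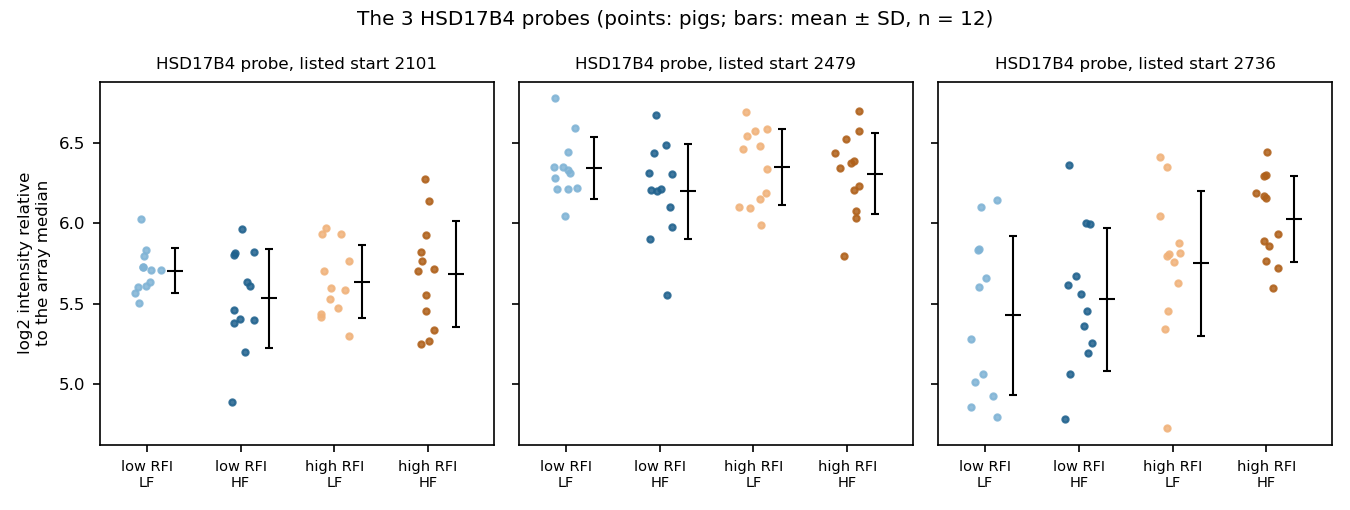
Log2 intensity relative to the array median (y axis) at the 3 HSD17B4 probes by line and diet (x axis), with 1 point per pig and bars for mean ± SD (n = 12). At 2736 the line difference over both diets was -0.41 (-0.50 on HF, called, and -0.32 on LF, not called), and at 2101 and 2479 the differences were -0.04 and -0.06.

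FGF21, the liver hormone, was near the lower limit of the array. Its brightest probe was well above background in 9 and 11 low RFI pigs (HF and LF) and in 11 and 12 high RFI pigs, of 12 each. Among low RFI pigs the levels ran from -4.24 to -0.95 (median -2.24) on HF and from -3.64 to 0.02 (median -2.56) on LF. In high RFI pigs they ran from -3.51 to 1.25 (median -1.80) on HF and from -3.60 to -0.69 (median -1.64) on LF. The spread within a group, an SD of 1.13 over the fit, was wider than any difference between groups. The diet difference was -0.07 (P = 0.822) and the line difference -0.56 (SE 0.318, P = 0.0866), and the dimmer probe gave -0.48 for line (P = 0.0537). Neither passed the cut-offs.

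The relations between the genes were then measured among pigs of the same line and diet. After group means were subtracted, 28 pairs of genes were compared over 48 pigs with 2-sided permutation tests within groups (100000 resamples), with P-BH over the pairs. In 12 pairs the P-BH of r was under 5%, 9 with positive and 3 with negative r, and in 11 pairs that of rho was. These 12 pairs had an r of at least 0.34 in size, which was 42.9% of the pairs, while 13% of all pairs of named genes on these arrays had an r of that size. The latter share was computed after the data were seen and is given as a description, without a test.

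ACAA1 and ACSL1 were the closest pair, with r = 0.70 and rho = 0.70 (permutation p = 1e-05 for each, the smallest that the resamples can give, P-BH = 0.00028). The r was 0.71 without the 2 pigs farthest from the median of ACAA1, and 0.83 and 0.73 within the scan days.
EHHADH followed HSD17B4 (r = 0.56, rho = 0.57, P-BH = 0.00084 and 0.0007), and 0.61 without 2 pigs. It also followed ACSL1 (r = 0.52, rho = 0.55, P-BH = 0.00101 and 0.0007), ACAA1 (r = 0.43, rho = 0.41) and DECR1 (r = 0.37, rho = 0.37). By scan day the r with ACAA1 was 0.63 and 0.27, and that with DECR1 0.50 and 0.25, so that in neither pair did the P-BH stay under 5% on both days. HSD17B4 was related to DECR1 (r = 0.54, rho = 0.53), PDK4 (r = 0.53, rho = 0.49) and ACSL1 (r = 0.41, rho = 0.48), all at a permutation P-BH under 5%. Within the scan days the r with PDK4 was 0.35 and 0.62. Among the 12 pairs, ACAA1 with ACSL1 alone kept a permutation P-BH under 5% on each day taken by itself, with 24 pigs a day.

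FGF21 had negative r with 3 of the genes. Its r was -0.55 with HSD17B4 (rho = -0.55, permutation P-BH = 0.00084 and 0.0007), -0.47 with DECR1 (rho = -0.46) and -0.46 with EHHADH (rho = -0.47). The first was -0.53 without 2 pigs and -0.81 and -0.45 within the scan days. With ACAA1 it was -0.11 (rho = -0.11) and with ACSL1 -0.17 (rho = -0.19), past no threshold (permutation P-BH = 0.539 and 0.358). With PDK4, its partner among fasting targets, the r was -0.31 (rho = -0.25, permutation P-BH = 0.0773 and 0.166). DECR1 and PDK4 (r = 0.34, rho = 0.33, P-BH = 0.0424 and 0.0502 by permutation) had r = -0.08 on the first scan day and 0.55 on the second, so that this relation did not hold within both. PDK4 and ACSL1, both lower on HF, had r = 0.23 within groups (rho = 0.29, permutation P-BH = 0.215 and 0.11). ECI2 was related to none of the others past the threshold, with r between -0.12 and 0.24.

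**Figure D4:**
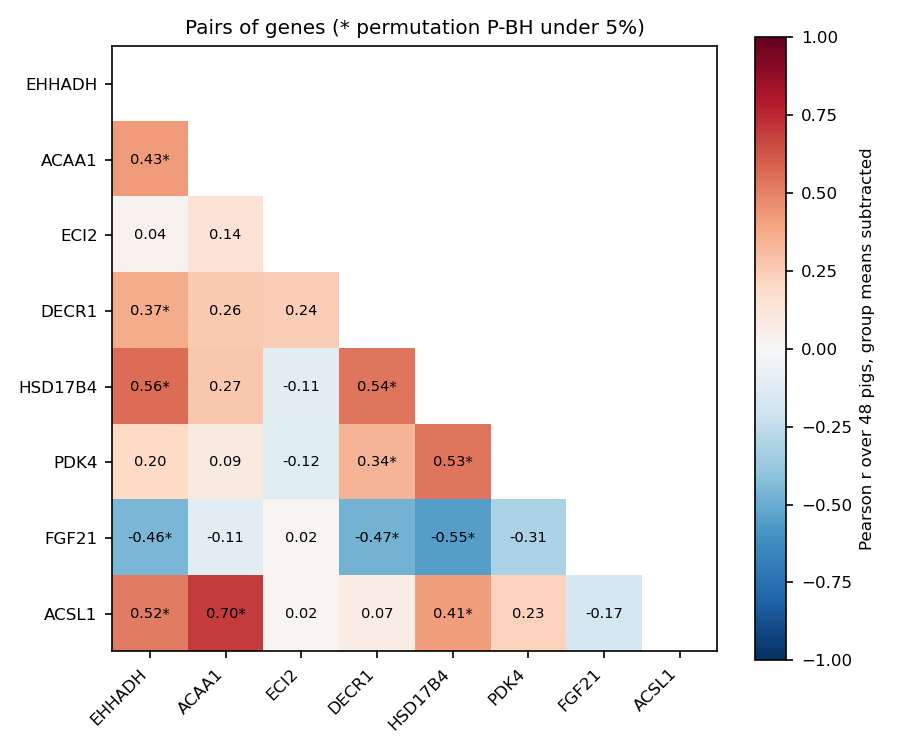
Pearson r (colour and number) between the brightest probes of each pair of the 8 genes over 48 pigs, with group means subtracted; an asterisk marks a permutation P-BH under 5%. Positive r joined EHHADH, ACAA1, DECR1, HSD17B4 and ACSL1 in most pairs (up to 0.70), and FGF21 had negative r with HSD17B4, DECR1 and EHHADH (-0.55 to -0.46).

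For each gene with a call or such a relation, the 3 named genes of highest r among 10479 are given as a description. Nearest to ACSL1 were CYP2C33 (r = 0.89), ACADVL (0.88), which opens mitochondrial oxidation of very long chains, and FBP1 (0.85), a gluconeogenic enzyme. FBP1 was also nearest to ACAA1 (0.80), before HADHA (0.78) and ACADS (0.78), enzymes of mitochondrial oxidation. EHHADH was nearest to ND4L (0.83), CYTB (0.82) and NDUFA3 (0.82), all of the respiratory chain. HSD17B4 was nearest to HIBADH (0.79) and ALDH6A1 (0.78), of valine breakdown, and to CYP2A7 (0.78), and DECR1 to C19ORF63 (0.78), PRDX3 (0.76) and NTAN1 (0.76). FGF21 was nearest to FUT1 (0.74), GDF15 (0.71), a stress hormone, and RHOB (0.67), while PDK4 had no r above 0.59, with LHX6 (0.59), FLJ43390 (0.59) and TMEM177 (0.57).

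Around the 8 genes, 6 lists of the same pathways were counted. The shares to set beside these counts are 6.82% of all named genes called for line and 4.19% for diet. Of 16 genes of mitochondrial beta-oxidation, all tested, 0 were called for line or diet, with medians of 0.04 and -0.03 (all named genes 0.01 and -0.02). Of 5 tested genes of ketone body metabolism 0 were called, with a median of -0.12 for diet.

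Of 20 tested peroxisomal genes besides the 8, 1 was called for diet, PEX5, the import receptor, at -0.18 (P = 0.00394, P-BH = 0.143). For line 3 were higher and 1 lower in low RFI pigs, with a list median of 0.02. The oxidase ACOX3 was higher by 0.27 (P = 1.87e-05, P-BH = 0.0018), CROT, which exports shortened chains, by 0.50 (P = 0.00153, P-BH = 0.0422), and the reductase DECR2 by 0.18 (P = 9.24e-05, P-BH = 0.00572). PHYH, which starts the breakdown of phytanic acid, was lower, at -0.33 (P = 0.00224, P-BH = 0.0549).

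Of 20 tested fasting regulators and targets, 1 was higher and 1 lower on HF. ANGPTL4, an inhibitor of lipoprotein lipase and target of PPARA, ran in low RFI pigs from 4.29 to 5.92 (median 4.94) on HF and from 4.77 to 6.20 (median 5.71) on LF, and in high RFI pigs from 4.20 to 5.82 (median 5.17) and from 4.54 to 6.17 (median 5.52). The groups overlapped, and over both lines it was lower on HF by a difference of -0.58 (SE 0.14, FC 1.50, P = 0.000138, P-BH = 0.0424). By line the difference was -0.67 (P = 0.00143) and -0.49 (P = 0.0166), the second short of the cut-off. PPARA itself was higher on HF, at 0.40 (P = 0.00361, P-BH = 0.139), and lower in low RFI pigs, at -0.37 (P = 0.00727, P-BH = 0.116). The line difference is that of the brightest probe. For liver PPARA the study reported the opposite direction, slightly higher in the low RFI line both by microarray and by qPCR. The reason for this conflict was not tested, so that no direction by line is read from PPARA.

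Of 9 tested genes of pyruvate dehydrogenase and its kinases, 0 were called for diet, with a list median of -0.07, and 1 for line, PDK1, at 0.31 (P = 0.000421, P-BH = 0.0174). Among the 3 other acyl-CoA synthetases tested, ACSL4, which prefers arachidonic acid, was lower on HF, at -0.77 (P = 0.00079, P-BH = 0.0808), and ACSL3 was lower in low RFI pigs, at -0.76 (P = 4.65e-06, P-BH = 0.000714).

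**Figure D5:**
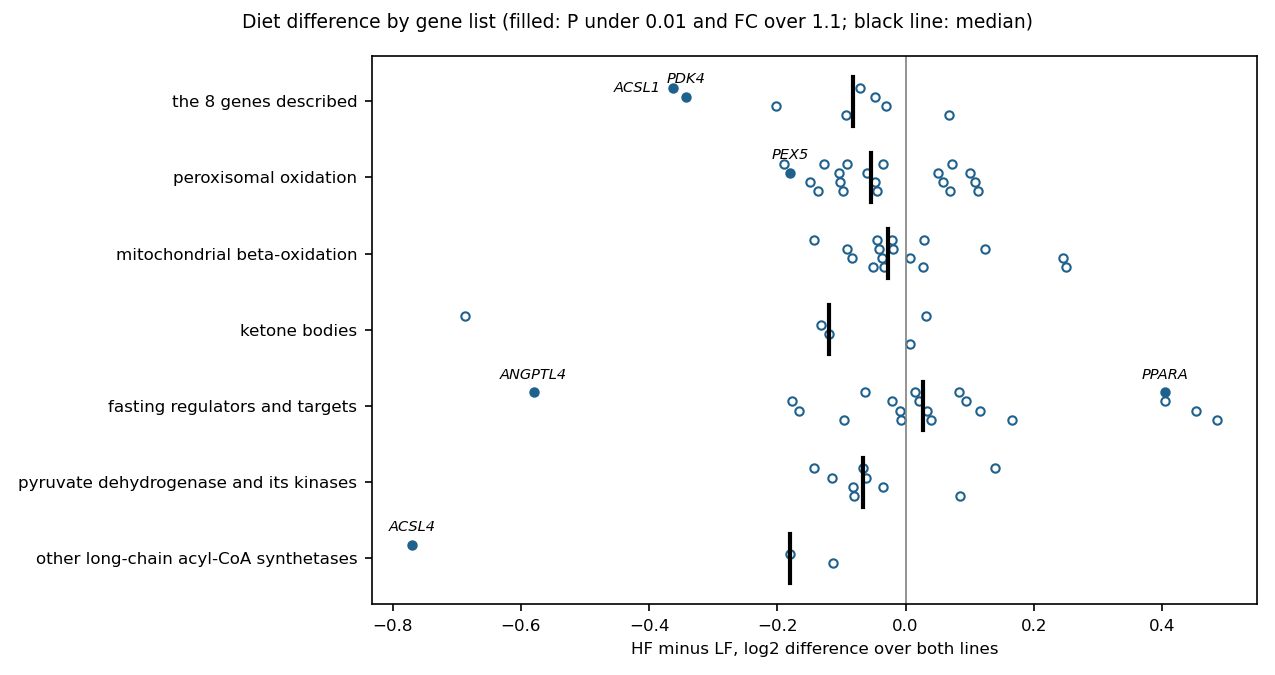
Diet difference (HF minus LF over both lines, log2, x axis) of the 8 genes and of the genes of the 6 pathway lists (y axis), with 1 point per gene, filled where called and named, and a black line at the list median. Calls were PDK4 and ACSL1 of the 8, and PEX5, PPARA, ANGPTL4 and ACSL4 of the lists, and the medians of the lists lay between -0.18 and 0.03.

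Markers of other cells were set beside the diet and line differences. For diet, the 5 hepatocyte markers tested all had differences below 0, with 0 called and a median of -0.09. Of 6 tested Kupffer cell markers 0 were called for either effect. For line all 6 were below 0 (median -0.18), and for diet 1 was (median 0.13). Their summed linear level in low RFI pigs ran from 117 to 271 (median 172) on HF and from 94.5 to 184 (median 147) on LF. In high RFI pigs it ran from 115 to 237 (median 174) on HF and from 124 to 303 (median 164) on LF.

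Of 3 skeletal muscle markers, ACTA1 had a diet difference of -0.29 (P = 0.0046, called), CKM of -0.08 (P = 0.326) and MYH7 of 0.13 (P = 0.222). In low RFI pigs they were -0.42 (P = 0.00339), -0.16 (P = 0.139) and 0.23 (P = 0.118), and the interaction of ACTA1 was -0.27 (P = 0.171). For line, MYH7 was called at -0.44, with 0.07 for ACTA1 and -0.05 for CKM. Of the 5 hepatocyte markers APOA1 alone was called for line, at 0.15, and of 4 bile duct markers KRT7 alone, at -0.35, with SOX9 at 0.40 (P = 0.0505). For diet, 0 of the 4 bile duct markers were called (median 0.26, 0 below 0), and 0 of 2 tested erythroid markers (median -0.32, 2 below 0). For line, 0 of 5 endothelial markers were called (median 0.18, 0 below 0). Of the tested stellate, T or NK, B cell and adipocyte markers, 0 were called for line or diet. The part of these cells in the differences of the 8 genes was not tested.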

How the data were processed

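The authors extracted liver RNA, labelled it with 1 dye and hybridized it to a custom porcine Agilent array. For each array they deposited the scanner output, in which every spot has a background-subtracted intensity and no scaling across arrays. In a separate table the authors deposited log2 values of 37379 probes, with each sample's median subtracted, which were used as an alternative. Their processing notes name R 2.10.0. The scanner files name no genome build, so that no coordinates are given.

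Each array has 60306 spots that are not controls. Over the 48 arrays together, 483 outlier readings of these spots were set to missing, and no spot was saturated. The intensity was put on the log2 scale, and the median of the tested probes of each array was subtracted. Over all spots that are not controls, the array medians ran from 53.0 to 126 in scanner units. The 45236 probes with a signal well above background in 12 or more pigs entered the test. A model with line, diet and their interaction was fitted to all of them with limma 3.58.1 in R 4.3.3. The methods of the study name an ANOVA with these terms, which was an alternative. Correlations and figures were made with Python 3.11.15, numpy 2.4.6, pandas 2.3.3 and matplotlib 3.10.9. The steps were tested on simulated data.

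Each array is a separate pig, and the number of arrays limits the precision. The genes of the pathway lists named are those called for line or diet, and the nearest genes are the 3 of highest r. The members and lists were chosen with earlier results of these data known. Probes were named from the scanner output or from accessions in the reference table, and 36227 remained without a name.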

Additional observations from a re-analysis of the deposited data

Results flagged for a closer look

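The diet response of PDK4 at the probe with listed start 3341 differed between the lines by the interaction of the model. The difference was -0.78 on the log2 scale (SE 0.28, limma P = 0.00838, P-BH = 1). In low RFI pigs the levels ran from 2.04 to 4.58 (median 3.88) on HF and from 3.63 to 5.27 (median 4.32) on LF, and in high RFI pigs from 2.98 to 4.52 (median 4.01) and from 3.20 to 4.40 (median 3.92). When each array was left out in turn it remained past the cut-offs in 20 of 48 fits, and without LF low RFI pig 12 the P was 0.0183. Over the other alternatives it lost the cut-offs in 3 of 13 (P up to 0.252), and the ends of its range were the scan days, at -0.33 (P = 0.252) and -1.22 (P = 0.0148). Between lines this probe gave 0.53 on LF (P = 0.0106) and -0.25 on HF (P = 0.225), where the brightest PDK4 probe gave 0.12 and -0.49. Of all probes, 0.376% were called for the interaction. Of the 45236 tested, 1071 had an unadjusted P under 0.05 in limma and 0 had a P-BH under 5%. A difference between the lines in the diet response of PDK4 is therefore not established.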

How the results depend on the processing

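The 2 genes called for diet became 0 with quantile normalization, with normexp, with the median intensity without background subtraction and within either scan day, and 1 with no filter on dim probes (PDK4) and with a model without interaction, the deposited log2 values or the mean of all probes (ACSL1). The 1 gene called for diet in the low RFI line became 0 in scan day 1, and the 1 called between lines on HF became 0 in scan day 1 and with the mean of all probes. The 12 correlated pairs became 5 in scan day 1 and 6 in scan day 2, each counted over all 28 pairs. The cause was not tested, except that each scan day holds 24 of 48 arrays. The ANOVA, the 75th percentile, the filter on all arrays, outlier spots kept, and slide or scan day as a block changed no such count, and the counts for line and interaction were 0 under all alternatives run.

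The direction turned in uncalled differences near 0. For line they were EHHADH in scan day 2 (-0.0836), HSD17B4 in scan day 1 (0.0294) and PDK4 in scan day 1 (0.0347). For diet they were ACAA1 with quantile normalization (0.0061) and normexp (0.0118), ECI2 in scan day 1 (0.0076), DECR1 in scan day 1 (-0.0142), HSD17B4 with the mean of all probes (0.0104), and FGF21 with the median intensity (0.0195), in scan day 1 (0.0955) and with the deposited values (0.0152). The r of DECR1 with PDK4 was -0.0811 in scan day 1.

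PDK4 kept its direction for diet, from -0.45 to -0.24 over these alternatives, and from -0.92 to -0.37 in the low RFI line. ACSL1 lay between -0.46 and -0.26, and the HSD17B4 probe at 2736 between -0.46 and -0.37 for line, with its P-BH above 5% within each scan day. The fits without 1 array, the values within a line and those of single probes were added after the data were seen. Signal over background limits FGF21. No paired analysis was run, because each array is a separate pig and the labels name no pairs. The replicate numbers only follow the order of the samples.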
